A study of Arabidopsis thaliana with 29 samples.

Results

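Whole Arabidopsis thaliana plants of the mutant pp7l after 15 days without water (pp7l 15D, 3 libraries) were compared with wild-type Col-0 plants after 12 days without water (Col0 12D, 3 libraries). The comparison asks what late mutant plants shared with, and lacked from, wild-type plants 3 days earlier in the same treatment. It covers 17092 of the 33681 loci measured, namely those with at least 1 TPM in at least 3 of the 6 libraries. TPM is each locus's share of all transcripts, corrected for transcript length and scaled to the same total in every library. Both groups grew on soil under long days, and were 3 weeks old when watering stopped. The pp7l plants were therefore 3 days older at harvest, and genotype and day cannot be told apart. No watered plants of either age were named in the labels, which also give pp7l-2 as the allele for the samples where the series names pp7l-1. The mutant is written pp7l here. Whether replicates are separate plants or pots is not said, so p-values measure the spread between these samples, which may be technical.

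Plants that lose water raise the hormone abscisic acid (ABA), made from carotenoids in a pathway whose controlled step is the dioxygenase NCED3. ABA binds receptors of the PYR/PYL family, the receptors hold back clade A PP2C phosphatases, and kinases such as OST1 are then free to close stomata and switch on genes of dehydrins and other protective proteins. ABA also raises the transcripts of the PP2Cs themselves, which makes these a readout of the pathway. Strong drought at the same time lowers transcripts of photosynthesis and growth, and in a plant that flowers it runs alongside flower and seed development and senescence. PP7L, the gene behind the mutant's name, encodes a phosphatase-like protein of the nucleus that chloroplasts need in order to develop.

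The PP7L locus, AT5G10900, did not check the genotype. It stood at 0.707, 1.03 and 1.60 TPM in pp7l 15D and at 0.584, 0.0893 and 0.334 TPM in Col0 12D. The libraries labelled pp7l were thus the higher ones, at levels close to the floor. Its relatives PP7 (AT5G63870), AT1G17930 and AT2G25010 were called in neither direction, with differences between -0.21 and 0.38 on the log2(TPM + 1) scale.

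A total of 22048 to 22769 loci were above 0 in each of the 6 libraries. TPM keeps no read numbers, so the depth is unknown. Rank correlations across loci were 0.921 to 0.976 within pp7l 15D and 0.952 to 0.97 within Col0 12D, against 0.682 to 0.826 between the groups. Genes are not independent replicates, and these values only describe the libraries. One library of each group stood apart. In Col0 12D replicate 3, 25.03% of all TPM came from nuclear rRNA loci, and in the other 5 libraries at most 0.11%. In pp7l 15D replicate 3, 115 loci were at least 2 below both other pp7l libraries on the log2(TPM + 1) scale. In each of the other 5 libraries 4 to 7 loci were that far below their group mates. Where leaving out either of these 2 libraries in turn changed a count that is printed, the count without it is given too, written as without either where both gave the same. The minimum of 1 TPM passes a locus that reached it in 1 group alone, and such a locus had to differ, so members of that kind are named beside the counts. A locus is said to have reached 1 TPM in both groups where at least 1 library of each had it.

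limma called 5941 of the 17092 loci (34.8%) at a Benjamini-Hochberg adjusted p under 0.05, with 3011 higher (17.6%) and 2930 lower (17.1%) in pp7l 15D. The counts by gene list given below are to be read against these shares. At least 2-fold changes made up 1898 of the higher (11.1%) and 1831 of the lower calls (10.7%), 21.8% in all. Without Col0 12D replicate 3 the calls were 2256 higher (13.2%) and 2381 lower (13.9%), 27.1% in all, and without pp7l 15D replicate 3 they were 2437 higher (14.3%) and 2358 lower (13.8%), 28.1% in all. The groups did not overlap at 4524 loci that were higher (26.5%) and 5546 that were lower (32.4%) in pp7l 15D, 58.9% in all. The balance of the calls depended on the total. When TPM were rescaled to nuclear loci without rRNA loci, the median difference of all loci moved to 0.22 (-0.08 as deposited) and the calls to 4546 higher (26.6%) and 1899 lower (11.1%), 37.7% in all. The share of higher calls among all calls was thereby 70.5%, against 50.7% with the deposited total. After median-of-ratios scaling 44.9% were called, 3898 as higher (22.8%) and 3776 as lower (22.1%). At 7471 loci (43.7%) the 95% interval of the difference, taken relative to the median locus, lay within 2-fold in either direction. The plants were harvested whole, so fewer cells of a type and less RNA per cell cannot be told apart in any of the differences.

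**Figure D1:**
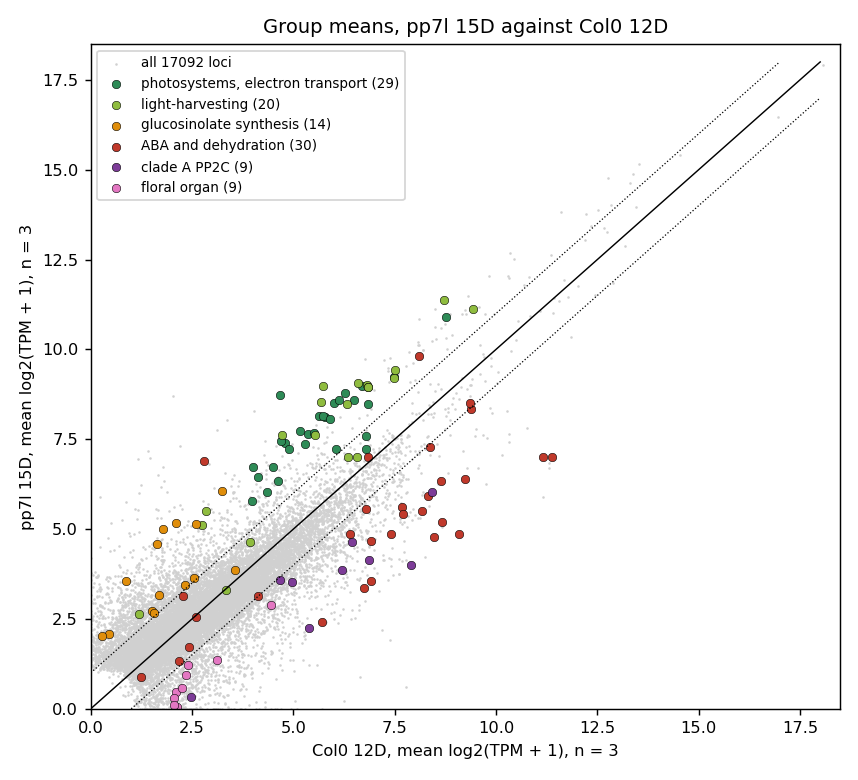
Mean log2(TPM + 1) of 3 pp7l 15D libraries (vertical) against that of 3 Col0 12D libraries (horizontal) for the 17092 loci, with 6 gene lists coloured and the number of members in brackets. The solid line marks equal means and the dotted lines 2-fold differences; most photosynthesis and glucosinolate genes lie above the solid line, and most dehydration, PP2C and floral genes below it.

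ABA and dehydration genes were mostly lower in pp7l 15D. Of 29 markers that reached 1 TPM in both groups, 22 were lower and 3 higher. ABI5 reached it in Col0 12D alone. The median difference over these 30 was -2.14 on the log2(TPM + 1) scale, against -0.08 for all loci. The count was 20 lower and 2 higher without either of the libraries that stood apart. RAB18, a dehydrin that ABA induces, stood at 211, 186 and 52.5 TPM in pp7l 15D and at 2264, 2426 and 3455 TPM in Col0 12D. Its highest pp7l library was below the lowest Col0 library, and the difference was -4.38 ± 0.53 (SE; limma adjusted p = 1.92e-07). LTI30, another dehydrin, had 170, 151 and 80.2 TPM in pp7l 15D and 1679, 2544 and 2748 TPM in Col0 12D, a difference of -4.15 ± 0.49 (SE). LEA7, a late embryogenesis abundant protein, had 51.9, 39.6 and 10.6 TPM in pp7l 15D against 427, 612 and 605 TPM in Col0 12D. COR47 was at 35.0 to 37.7 TPM in pp7l 15D and 303 to 511 TPM in Col0 12D. RD29B (LTI65 in the reference), an ABA-responsive marker gene, was at 7.15 to 11.8 TPM in pp7l 15D and 85.3 to 127 TPM in Col0 12D. In all of these the groups did not overlap.

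The step that makes ABA moved the same way. NCED3 had 3.67, 4.36 and 4.97 TPM in pp7l 15D and 34.7, 55.6 and 68.6 TPM in Col0 12D. The difference was -3.29 ± 0.29 (SE; limma adjusted p = 1.32e-09), with no overlap. Some genes of the list went the other way or did not pass the test. COR15B, a chloroplast protein that protects membranes in the cold and in drought, had 115, 112 and 130 TPM in pp7l 15D and 7.396, 5.60 and 4.93 TPM in Col0 12D, a difference of 4.12 ± 0.40 (SE; limma adjusted p = 5.98e-09). KIN2 was higher too, at 874 to 951 TPM in pp7l 15D and 208 to 335 TPM in Col0 12D, though reads shared with its close copy KIN1 make the split between them uncertain. The galactinol synthase GOLS1, which starts the synthesis of raffinose sugars, was higher by 0.87 ± 0.33 (SE) and did not pass the test without either of the libraries that stood apart. Its relative GOLS2 stood at 114 to 136 TPM in pp7l 15D and 82.8 to 149 TPM in Col0 12D, and did not pass. The ABA-responsive transcription factor ABF3 was at 4.31 to 5.67 TPM in pp7l 15D and 4.29 to 6.54 TPM in Col0 12D, and did not pass either.

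All 8 clade A PP2C genes that reached 1 TPM in both groups were lower in pp7l 15D, also without either library that stood apart, and AHG1 reached it in Col0 12D alone. With the total of nuclear loci HAB2 did not pass. HAI1 had 23.2, 17.2 and 8.12 TPM in pp7l 15D and 201, 256 and 258 TPM in Col0 12D. The difference of -3.90 ± 0.34 (SE; limma adjusted p = 7.34e-10) was the largest of the family. HAI3 was at 3.33 to 4.09 TPM in pp7l 15D and 35.9 to 46.4 TPM in Col0 12D. PP2CA was at 56.5 to 69.9 TPM in pp7l 15D and 326 to 354 TPM in Col0 12D. HAB2 differed least, by -1.10 ± 0.27 (SE), with 9.996 to 11.7 TPM in pp7l 15D and 23.7 to 25.6 TPM in Col0 12D. OST1, the kinase that the PP2Cs restrain, was lower as well, at 5.80 to 6.10 TPM in pp7l 15D and 12.5 to 17.2 TPM in Col0 12D. The receptors stood the other way round. Of 5 PYR/PYL genes that reached 1 TPM in both groups 2 were higher and none lower, and PYL4 reached it in pp7l 15D alone. PYL4 had 5.95, 4.39 and 6.61 TPM in pp7l 15D and 0.757, 0.541 and 0.577 TPM in Col0 12D, and PYL1 and PYR1 were higher by 1.13 ± 0.26 and 0.82 ± 0.26 (SE). PYR1 did not pass without either of the libraries that stood apart.

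The upstream sequences of 4 of these and other genes are shown because the core of the ABA-responsive element, ACGTG, is known in many promoters of ABA-induced genes. Each is the 250 bases before the gene start, 5′ to 3′ on the gene's strand, from RefSeq assembly TAIR10.1, with ACGTG on either strand in capitals.
RAB18 (chr5:26519448-26519697, minus strand): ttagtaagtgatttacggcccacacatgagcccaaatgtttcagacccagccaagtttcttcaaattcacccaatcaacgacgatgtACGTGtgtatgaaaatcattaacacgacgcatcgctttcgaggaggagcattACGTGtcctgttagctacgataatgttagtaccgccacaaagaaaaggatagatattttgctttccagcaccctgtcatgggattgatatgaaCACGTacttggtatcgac
HAI3 (chr2:12608425-12608674, plus strand): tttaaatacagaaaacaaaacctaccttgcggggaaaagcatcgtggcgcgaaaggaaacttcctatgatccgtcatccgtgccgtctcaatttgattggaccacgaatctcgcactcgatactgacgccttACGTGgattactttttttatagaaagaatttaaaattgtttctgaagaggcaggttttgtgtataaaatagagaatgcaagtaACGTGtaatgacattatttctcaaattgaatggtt
HAI1 (chr5:23896940-23897189, minus strand): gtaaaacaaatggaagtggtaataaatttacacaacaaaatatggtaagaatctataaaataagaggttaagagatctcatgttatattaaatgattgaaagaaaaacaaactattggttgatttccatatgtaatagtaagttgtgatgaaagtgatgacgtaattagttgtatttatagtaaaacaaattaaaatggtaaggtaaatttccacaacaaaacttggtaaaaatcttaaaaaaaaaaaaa
CAB1 (chr1:10477635-10477884, plus strand): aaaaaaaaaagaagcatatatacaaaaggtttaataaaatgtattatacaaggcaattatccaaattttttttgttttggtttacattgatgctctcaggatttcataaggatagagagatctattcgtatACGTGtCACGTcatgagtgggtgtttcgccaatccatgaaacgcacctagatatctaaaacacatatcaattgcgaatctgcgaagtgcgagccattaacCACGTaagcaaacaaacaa

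RAB18 held 3 matches and HAI3 held 2. HAI1, with the largest difference of the PP2Cs, held none in this window, while the light-harvesting gene CAB1, which was higher in pp7l 15D, held 3. Over the lists, 18 of 30 dehydration genes (60%) and 6 of 9 PP2C genes (66.7%) held at least 1 match, as did 8 of 20 light-harvesting genes (40%). Of all 27443 nuclear protein-coding promoters of that length, 22.9% held one. The share was 31.7% of 2852 promoters of genes called lower in pp7l 15D and 21.7% of 2837 promoters of genes called higher. For the I-box letters GATAAG, on either strand, the shares were 11.5% of genes called lower, 14.9% of genes called higher and 12.3% of all promoters. No PP2C promoter held GATAAG, and 8 of 29 photosystem and electron transport promoters (27.6%) did. The 2 motifs were searched separately. A match is a description of sequence and was not tested as a site.

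**Figure D2:**
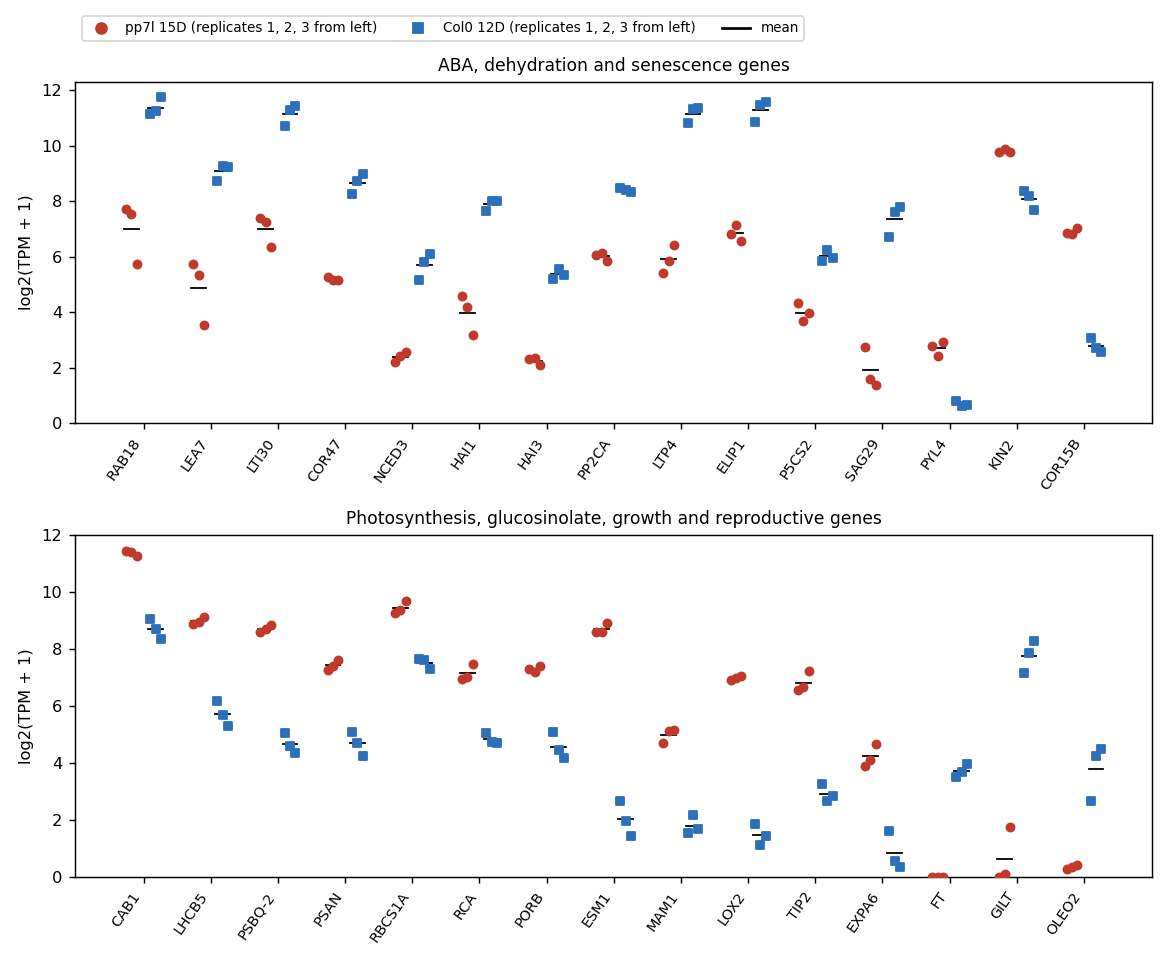
log2(TPM + 1) of 30 genes in each library, with pp7l 15D as circles left of Col0 12D as squares, replicates 1 to 3 from left to right, and a line at each mean (n = 3). RAB18, HAI1, LTP4, SAG29 and GILT are lower in all 3 pp7l 15D libraries than in any Col0 12D library, and COR15B, PYL4, LHCB5, ESM1 and LOX2 are higher.

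Proline, which accumulates in drying leaves, is made by P5CS enzymes. Of 8 measured genes of proline metabolism 3 were lower and 1 higher in pp7l 15D, where 17.1% and 17.6% of all loci were. P5CS2 had 18.97, 11.8 and 14.6 TPM in pp7l 15D and 57.4, 74.7 and 61.2 TPM in Col0 12D, and P5CS1 had 40.0 to 60.8 TPM in pp7l 15D and 106 to 116 TPM in Col0 12D. ALDH12A1, which breaks proline down, was lower, with a difference of -1.26 ± 0.28 (SE). AT5G38710, listed as a proline dehydrogenase, was higher, at 3.06 to 5.86 TPM in pp7l 15D and 1.62 to 2.73 TPM in Col0 12D, and did not pass without Col0 12D replicate 3.

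Lipid transfer proteins are small secreted proteins, of which several respond to drought, and their genes differed in both directions. LTP4 had 42.1, 56.6 and 85.9 TPM in pp7l 15D and 1810, 2562 and 2629 TPM in Col0 12D, a difference of -5.26 ± 0.43 (SE; limma adjusted p = 3.03e-10). LTP3 had 188 to 217 TPM in pp7l 15D and 1141 to 1395 TPM in Col0 12D. LTP6 had 10.9 to 28.8 TPM in pp7l 15D and 122 to 268 TPM in Col0 12D. LTP (AT2G15050), which is outside the list, was the other way, with 31.8, 40.5 and 43.5 TPM in pp7l 15D and 2.40, 0.954 and 0.593 TPM in Col0 12D, a difference of 4.16 ± 0.47 (SE). Reads that close family members such as LTP3 and LTP4 share may have been divided between them, so the split within the family is uncertain. Of the 15 genes of wax synthesis and lipid transfer 4 were lower and none higher, or 7 lower without pp7l 15D replicate 3. Among all loci 17.1% were lower and 17.6% higher, or 13.8% lower without that library. With the total of nuclear loci 2 of the 15 were higher.

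Of 8 heat shock genes that reached 1 TPM in both groups, most of them chaperones induced by heat and by severe drought, 4 were lower and none higher in pp7l 15D. HSFA2, a heat shock transcription factor, did not pass without either library that stood apart. Another 4, HSP17.4, HSP18.2, AT1G53540 and ATHSP22.0, reached it in Col0 12D alone. HSP70 (AT3G12580) had 60.8, 70.1 and 16.2 TPM in pp7l 15D and 168, 285 and 353 TPM in Col0 12D. HSP17.4 was at 0 to 0.148 TPM in pp7l 15D and 4.76 to 20.2 TPM in Col0 12D. ELIP1, an early light-induced protein that binds free chlorophyll, had 113, 141 and 93.6 TPM in pp7l 15D against 1844, 2877 and 3057 TPM in Col0 12D. That difference was -4.46 ± 0.53 (SE; limma adjusted p = 1.81e-07). ELIP2 reached 1 TPM in Col0 12D alone, with 0.189 to 0.419 TPM in pp7l 15D and 2.76 to 10.07 TPM in Col0 12D.

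Senescence genes were called in both directions. Of 14 genes 4 were lower and 2 higher in pp7l 15D, where 17.1% and 17.6% of all loci were. The median was -0.15, and 0.17 with the total of nuclear loci. Without pp7l 15D replicate 3 the median was 0.37, and 3 were higher and 4 lower. SAG29, a sugar transporter named for senescence, had 5.81, 2.01 and 1.59 TPM in pp7l 15D and 103, 195 and 224 TPM in Col0 12D, a difference of -5.47 ± 0.40 (SE; limma adjusted p = 2.92e-11). NAP, a transcription factor that promotes leaf senescence, had 11.2 to 14.5 TPM in pp7l 15D and 41.1 to 60.5 TPM in Col0 12D. NAC6, the factor also known as ORE1, had 8.81 to 11.7 TPM in pp7l 15D and 54.6 to 79.2 TPM in Col0 12D. SAG12, a cysteine protease of late senescence, did not pass the test, with 17.2, 16.7 and 51.2 TPM in pp7l 15D and 30.5, 27.7 and 27.8 TPM in Col0 12D. SAG101, a lipase-like protein, was higher by 0.88 ± 0.21 (SE). Of 10 autophagy genes, which recycle cell content, 4 were lower and none higher, or 3 lower without either library that stood apart and 2 with the total of nuclear loci. Among all loci 17.1% were lower, and 11.1% with the total of nuclear loci. ATG8A (APG8A in the reference) had 27.9 to 36.5 TPM in pp7l 15D and 69.2 to 84.1 TPM in Col0 12D.

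Photosynthesis transcripts were the higher group in pp7l 15D. Of 20 light-harvesting genes 16 were higher and none lower, with a median difference of 2.12, and of 29 nuclear genes of the photosystems and electron transport 26 were higher and none lower, with a median of 2.29. Without Col0 12D replicate 3 the counts were 16 and 24, and they were again 16 and 24 without pp7l 15D replicate 3. LHCB5, an antenna protein of photosystem II, had 477, 498 and 555 TPM in pp7l 15D and 71.9, 50.2 and 38.5 TPM in Col0 12D, a difference of 3.27 ± 0.38 (SE; limma adjusted p = 1.26e-07). PSBQ-2, of the oxygen-evolving complex, had 388, 422 and 455 TPM in pp7l 15D against 32.2, 23.2 and 19.3 TPM in Col0 12D. Its difference of 4.06 ± 0.46 (SE; limma adjusted p = 8.09e-08) was the largest among the photosystem genes. PSAN, of photosystem I, was at 153 to 198 TPM in pp7l 15D and 18.16 to 33.0 TPM in Col0 12D. CAB1 was at 2451 to 2767 TPM in pp7l 15D and 329 to 529 TPM in Col0 12D. Its near-identical neighbour CAB2 did not pass, with 109 to 145 TPM in pp7l 15D and 83.1 to 102 TPM in Col0 12D, and reads of the pair cannot be assigned with certainty. Others that did not pass were LHCB4.3, at 7.83 to 10.8 TPM in pp7l 15D and 6.58 to 11.5 TPM in Col0 12D, and the Rieske protein PETC, at 141 to 165 TPM in pp7l 15D and 94.7 to 127 TPM in Col0 12D.

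The enzymes of carbon fixation stood higher as well. Of 19 genes of the Calvin-Benson cycle 14 were higher and none lower, with a median of 1.34. It was 8 without Col0 12D replicate 3 and 10 without pp7l 15D replicate 3. RBCS1B, a small subunit of Rubisco, had 42.3 to 59.2 TPM in pp7l 15D and 2.14 to 3.80 TPM in Col0 12D. RBCS1A, the more abundant small subunit, had 623 to 831 TPM in pp7l 15D and 158 to 200 TPM in Col0 12D. Reads shared among the RBCS copies may have been divided between them. RCA, which activates Rubisco, was higher by 2.31 ± 0.35 (SE; limma adjusted p = 6.19e-06). RPE and TIM, enzymes shared with other sugar pathways, did not pass, with 78.4 to 87.4 and 31.8 to 35.9 TPM in pp7l 15D and 58.1 to 77.1 and 24.1 to 34.1 TPM in Col0 12D. In photorespiration 6 of 11 genes were higher, or 4 without Col0 12D replicate 3 and 3 without pp7l 15D replicate 3, among them PGLP1 with a difference of 2.47 ± 0.25 (SE). The peroxisomal catalase CAT2 was the lower one, at 20.7 to 22.6 TPM in pp7l 15D and 59.9 to 88.5 TPM in Col0 12D.

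Chlorophyll synthesis was higher at 10 of 23 genes and lower at none, or at 7 without either library that stood apart. PORB, which makes chlorophyllide in the light, had 147 to 170 TPM in pp7l 15D and 16.9 to 33.2 TPM in Col0 12D. CHLM, a methyltransferase of the magnesium branch, had 25.02 to 29.7 TPM in pp7l 15D and 3.31 to 6.46 TPM in Col0 12D. GSA1, of the early tetrapyrrole steps, did not pass, with 16.4 to 18.4 TPM in pp7l 15D and 20.2 to 22.4 TPM in Col0 12D. Of 9 chlorophyll breakdown genes that reached 1 TPM in both groups 2 were lower and none higher, where 17.1% and 17.6% of all loci were. CLH1 reached 1 TPM in pp7l 15D alone. PAO (ACD1 in the reference), the oxygenase that opens the ring, had 25.7, 24.0 and 27.4 TPM in pp7l 15D and 96.7, 114 and 99.0 TPM in Col0 12D, a difference of -1.96 ± 0.36 (SE; limma adjusted p = 7.94e-05). NYE2 (AT4G11910) was at 7.79 to 9.43 TPM in pp7l 15D and 36.6 to 42.0 TPM in Col0 12D. CLH1, a chlorophyllase that jasmonate induces, was at 10.5 to 11.0 TPM in pp7l 15D and 0.285 to 0.460 TPM in Col0 12D.

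Plastid transcripts, which are made in the organelle, stood beside these nuclear genes. Of 71 plastid loci 57 were higher and none lower, with a median of 1.75, against 41 without Col0 12D replicate 3 and 46 without pp7l 15D replicate 3. Together the plastid loci held 60.2%, 62.5% and 63.5% of TPM in pp7l 15D and 54.3%, 45.6% and 31.5% in Col0 12D. The groups did not overlap, and an exact two-sided permutation test gave p = 0.1, the smallest that 3 against 3 allows. Over a total without rRNA loci the means were 62.1 ± 1.69% in pp7l 15D and 47.3 ± 6.35% in Col0 12D (SD, n = 3). The most abundant locus, ATCG00020, was not among the higher ones, with 23.64%, 25.3% and 25.6% in pp7l 15D and 35.8%, 30.2% and 19.4% in Col0 12D. Its groups overlapped (exact two-sided permutation p = 0.5), and it was not called and had an interval within 2-fold. Without it, the plastid share was 36.6%, 37.2% and 37.9% in pp7l 15D and 18.46%, 15.4% and 12.1% in Col0 12D. ATCG00490 was at 36340 to 37250 TPM in pp7l 15D and 7667 to 17340 TPM in Col0 12D, a difference of 1.64 ± 0.43 (SE; limma adjusted p = 0.00328).

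Mitochondrial loci did not follow. Of 70 loci 3 were higher and 2 lower, or 1 and 1 without Col0 12D replicate 3 and 1 and 0 without pp7l 15D replicate 3. Their median was -0.05, and 0.31 with the total of nuclear loci. The interval lay within 2-fold at 24 of the 70, a smaller share than the 43.7% of all loci. Together the mitochondrial loci held 1.75% to 1.76% of TPM in pp7l 15D and 1.53% to 2.23% in Col0 12D (exact two-sided permutation p = 0.4). Over a total without rRNA loci the shares were 1.75% to 1.76% in pp7l 15D and 2.04% to 2.23% in Col0 12D (exact two-sided permutation p = 0.1, the smallest possible).

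Aquaporins, the water channels of the plasma and vacuolar membranes, were called in both directions. Of 15 that reached 1 TPM in both groups 7 were higher and 3 lower, where 17.6% and 17.1% of all loci were. The lower count was thus near the share of all loci. PIP2;8 reached 1 TPM in pp7l 15D alone and TIP3;1 in Col0 12D alone. Over these 17 the counts of 8 higher and 4 lower became 6 and 3 without either library that stood apart. TIP2 had 93.6, 100 and 149 TPM in pp7l 15D and 8.53, 5.40 and 6.12 TPM in Col0 12D, a difference of 3.90 ± 0.32 (SE; limma adjusted p = 2.93e-10). DELTA-TIP was higher by 2.16 ± 0.37 (SE). PIP1;4, at 49.1 to 55.5 TPM in pp7l 15D and 143 to 154 TPM in Col0 12D, was among the lower ones. Alpha-expansins loosen cell walls. Of 7 that reached 1 TPM in both groups 4 were higher and none lower, where 17.6% and 17.1% of all loci were. EXP3 and EXPA15 reached 1 TPM in pp7l 15D alone. Over these 9 the count of 6 higher became 5 without either library that stood apart. EXPA6 had 14.0, 16.3 and 24.6 TPM in pp7l 15D and 2.01, 0.480 and 0.256 TPM in Col0 12D. EXPA11 had 0.866 to 1.51 TPM in pp7l 15D and 1.297 to 2.75 TPM in Col0 12D, and did not pass. Of 4 cell cycle genes that reached 1 TPM in both groups 2 were higher, where 17.6% of all loci were. CYC1BAT and CYCD3;1 reached 1 TPM in pp7l 15D alone. Over these 6 the count of 4 higher became 2 without either library that stood apart. The D-type cyclin CYCD3;1 was at 4.13 to 5.98 TPM in pp7l 15D and at most 0.255 TPM in Col0 12D.

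**Figure D3:**
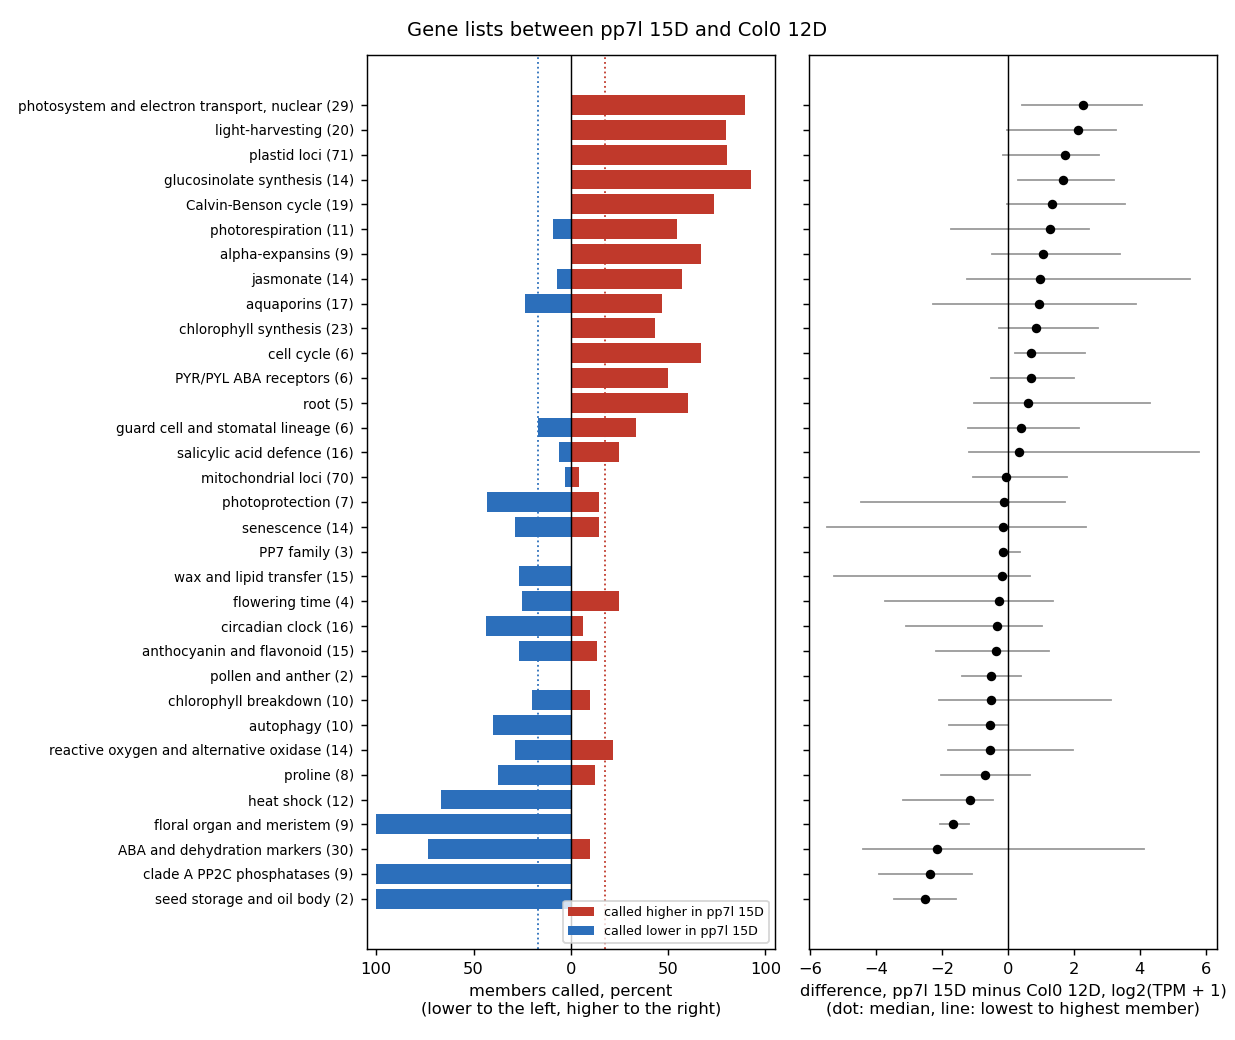
For each gene list (number of members in brackets), the left panel gives the percentage of members called higher (right) and lower (left) in pp7l 15D than in Col0 12D, with dotted lines at the 17.6% and 17.1% of all loci. The right panel gives the median difference as a dot and the range of members as a line, from 2.29 for photosystem genes to -2.50 for the seed storage and oil body list. The panels include members that reached 1 TPM in 1 group alone, 4 of 9 floral and 4 of 12 heat shock genes among them. In the seed storage and oil body list 2 of 2 members reached it in Col0 12D alone, so the filter fixed the direction of that median.

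Glucosinolates, the sulfur-rich defence compounds of the cabbage family, were higher at the level of their synthesis genes. Of 12 genes that reached 1 TPM in both groups 11 were higher and none lower, and MYB29 and BAT5 reached it in pp7l 15D alone. Over these 14 the count of 13 higher became 11 without Col0 12D replicate 3 and 12 without pp7l 15D replicate 3. MAM1, which elongates methionine in the aliphatic branch, had 25.2, 33.5 and 34.8 TPM in pp7l 15D and 1.89, 3.48 and 2.19 TPM in Col0 12D, a difference of 3.20 ± 0.38 (SE; limma adjusted p = 1.91e-07). CYP83A1 had 26.1 to 41.1 TPM in pp7l 15D and 2.75 to 4.31 TPM in Col0 12D. The sulfotransferase SOT18 did not pass, with 11.1 to 16.5 TPM in pp7l 15D and 8.71 to 12.3 TPM in Col0 12D. Genes outside this list, named for the size of their difference or from another list, included ESM1, MBP1 and PYK10. ESM1, an epithiospecifier modifier that steers glucosinolate breakdown towards isothiocyanates, had 386, 388 and 484 TPM in pp7l 15D and 5.33, 2.88 and 1.72 TPM in Col0 12D. Its difference of 6.69 ± 0.37 (SE; limma adjusted p = 1.46e-13) was the largest of all loci. MBP1, a myrosinase-binding protein, was at 64.2 to 81.6 TPM in pp7l 15D and 0.550 to 2.76 TPM in Col0 12D. PYK10, a beta-glucosidase known from roots, was at 23.7 to 29.1 TPM in pp7l 15D and 0 to 1.02 TPM in Col0 12D.

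Of 13 jasmonate genes that reached 1 TPM in both groups 7 were higher and 1 lower, and PDF1.2 reached it in pp7l 15D alone. Over these 14 the count of 8 higher became 6 without Col0 12D replicate 3 and 7 without pp7l 15D replicate 3, and with the total of nuclear loci none was lower. LOX2, the chloroplast lipoxygenase that starts jasmonate synthesis, had 118, 127 and 131 TPM in pp7l 15D and 2.57, 1.16 and 1.68 TPM in Col0 12D, a difference of 5.52 ± 0.41 (SE; limma adjusted p = 3.56e-11). AOC2, an allene oxide cyclase of the same pathway, had 89.0 to 100.4 TPM in pp7l 15D and 10.2 to 30.4 TPM in Col0 12D, and the jasmonate-induced storage protein VSP2 had 75.5 to 104 TPM in pp7l 15D and 22.2 to 24.6 TPM in Col0 12D. The defensin PDF1.2 was at 4.78, 6.70 and 2.55 TPM in pp7l 15D and is listed at 0 in the 3 Col0 12D libraries. The thionin THI2.1 was the lower one, at 5.44, 11.0 and 18.7 TPM in pp7l 15D and 25.3 to 27.3 TPM in Col0 12D. Among the other genes with the widest gaps, the germin-like GER1 had 125 to 162 TPM in pp7l 15D and 0.677 to 3.80 TPM in Col0 12D. ACD6, an ankyrin protein that promotes salicylic acid defence, had 49.9 to 70.4 TPM in pp7l 15D and 0.115 to 0.311 TPM in Col0 12D. It reached 1 TPM in pp7l 15D alone. DR4, annotated as drought-repressed, had 50.9 to 85.5 TPM in pp7l 15D and 0.644 to 2.59 TPM in Col0 12D. PCC1 had 97.5 to 114 TPM in pp7l 15D and 1.295 to 5.38 TPM in Col0 12D. AT2G45180, AT2G10940, AT2G41090 and AT5G42530 completed the 12 largest, with differences of 4.68 to 5.13.

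Salicylic acid defence genes were among those at which the pp7l libraries differed among themselves. Of 16 genes 4 were higher and 1 lower in pp7l 15D, where 17.6% and 17.1% of all loci were. The counts were 1 higher and 2 lower without Col0 12D replicate 3, and 5 higher and none lower without pp7l 15D replicate 3. With the total of nuclear loci 7 were higher and none lower. PR1, a secreted defence protein, had 309, 134 and 44.2 TPM in pp7l 15D and 3.43, 0.854 and 0.354 TPM in Col0 12D, a difference of 5.79 ± 0.73 (SE; limma adjusted p = 3.92e-07). All pp7l libraries were above all Col0 libraries, and pp7l replicate 3 was the lowest of its group. FMO1, needed for systemic resistance, had 185, 135 and 5.48 TPM in pp7l 15D and 13.5, 11.3 and 10.3 TPM in Col0 12D, so that pp7l replicate 3 was below every Col0 library. Its difference of 2.12 ± 0.70 (SE; limma adjusted p = 0.0197) became 3.66 without that library, and it did not pass without Col0 12D replicate 3. The camalexin genes had the same split. CYP79B2, at the start of the indole branch, had 217, 119 and 10.4 TPM in pp7l 15D and 9.94, 9.27 and 6.67 TPM in Col0 12D, and PAD3, the last enzyme, had 184, 136 and 14.5 TPM in pp7l 15D and 49.1, 45.7 and 32.7 TPM in Col0 12D. NAC042, a transcription factor, had 41.5, 32.1 and 2.81 TPM in pp7l 15D and 2.88, 2.50 and 1.92 TPM in Col0 12D. WRKY75 had 86.8, 60.3 and 5.71 TPM in pp7l 15D and 20.3, 21.6 and 22.5 TPM in Col0 12D. The alternative oxidase AOX1D had 96.5, 80.5 and 4.92 TPM in pp7l 15D and 44.3, 52.4 and 61.7 TPM in Col0 12D. In these 3 genes, too, pp7l replicate 3 was far below its group mates. PBS3, an enzyme of salicylic acid synthesis, was lower, with 25.7, 18.4 and 4.17 TPM in pp7l 15D and 36.9, 32.3 and 24.2 TPM in Col0 12D, and did not pass without pp7l 15D replicate 3.

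RAB18, LEA7, SAG21 and HSP70 were also lowest in pp7l 15D replicate 3 and stayed below Col0 12D in every library. SAG21, a late embryogenesis abundant protein, had 175, 156 and 40.3 TPM in pp7l 15D and 533, 727 and 608 TPM in Col0 12D. Without that library the difference of RAB18 was -3.74, that of LEA7 -3.55, that of SAG21 -1.90 and that of HSP70 -1.96. SEP3 and GRP19 were highest in it.

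**Figure D4:**
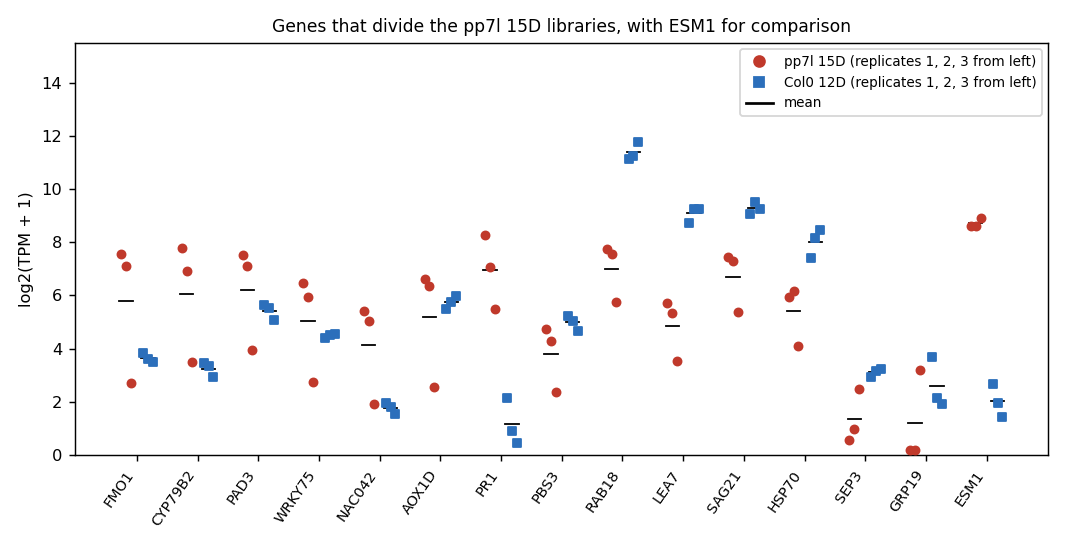
log2(TPM + 1) of 15 genes in each library, pp7l 15D as circles left of Col0 12D as squares, replicates 1 to 3 from left to right, lines at the means (n = 3). In pp7l 15D the third circle lies far below the first and second for FMO1, CYP79B2, PAD3, WRKY75, NAC042 and AOX1D, is higher for SEP3 and GRP19, and lies with them for ESM1.

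Genes of flowers and fruits were at low levels in pp7l 15D. Of the 9 floral organ genes with at least 1 TPM in 3 of the 6 libraries, SEP1, SHP1, SHP2 and STK reached it in Col0 12D alone, and the other 5 were lower in pp7l 15D. AP3, SEP2 and SEP3 reached it in pp7l 15D only in replicate 3, so the filter bears on these too. The summed level of the list was 8.24 to 22.5 TPM in pp7l 15D and 51.1 to 59.5 TPM in Col0 12D. SEP3, which specifies floral organs, had 0.488, 0.967 and 4.65 TPM in pp7l 15D and 6.66, 8.06 and 8.45 TPM in Col0 12D, a difference of -1.77 ± 0.38 (SE; limma adjusted p = 5.75e-04). The ovule and carpel genes STK and SHP2 were at most 0.164 and 0.0711 TPM in pp7l 15D and 2.41 to 4.22 and 2.64 to 4.28 TPM in Col0 12D. AP3, of petals and stamens, was at 0.638 to 1.59 TPM in pp7l 15D and 2.81 to 5.77 TPM in Col0 12D. FUL (AGL8 in the reference) was at 5.17 to 7.86 TPM in pp7l 15D and 19.03 to 23.64 TPM in Col0 12D. FT, the mobile signal that starts flowering under long days, is listed at 0 in all 3 pp7l 15D libraries and had 10.3, 11.9 and 14.5 TPM in Col0 12D. It thus passed the filter through Col0 12D alone. SVP, which represses FT, was higher by 1.37 ± 0.38 (SE), at 40.8 to 53.0 TPM in pp7l 15D and 14.0 to 19.9 TPM in Col0 12D.

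Several of the widest gaps on the lower side came from genes near the floor in pp7l 15D. GILT (AT4G12960), annotated as a lysosomal thiol reductase, had 0, 0.0718 and 2.38 TPM in pp7l 15D and 142, 232 and 314 TPM in Col0 12D. Its difference of -7.15 ± 0.38 (SE; limma adjusted p = 1.12e-13) was the most negative of all loci. A second GILT gene, AT4G12870, was at 0.223 to 2.63 TPM in pp7l 15D and 60.1 to 149 TPM in Col0 12D. DELTA-VPE, a protease of the developing seed coat, was at 0 to 0.434 TPM in pp7l 15D and 50.2 to 100.2 TPM in Col0 12D. GASA3, of a gibberellin-regulated peptide family, had 2.52 to 4.35 TPM in pp7l 15D and 121 to 184 TPM in Col0 12D. OLEO2, an oil body protein of seeds, was at 0.204 to 0.328 TPM in pp7l 15D and 5.38 to 21.4 TPM in Col0 12D, and TIP3;1, an aquaporin of seed vacuoles, at 0 to 0.0664 TPM in pp7l 15D and 1.65 to 6.24 TPM in Col0 12D. Only 2 of 15 seed storage and oil body genes and none of 4 seed regulators passed the minimum of 1 TPM. These 2, OLEO1 and OLEO2, reached it in Col0 12D alone, as did DELTA-VPE and TIP3;1. Of the pollen and anther genes 2 of 6 passed the minimum and neither was called. GRP19, of the pollen coat, had 0.148, 0.131 and 8.17 TPM in pp7l 15D and 11.9, 3.47 and 2.76 TPM in Col0 12D.

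Some loci were on in 1 group alone, meaning at least 5 TPM in each of its libraries and listed at 0 in all 3 of the other. There were 24 such loci in Col0 12D and 4 in pp7l 15D. The highest in Col0 12D were AT4G15750, an invertase/pectin methylesterase inhibitor with 32.1 to 66.1 TPM, and the neighbouring lipid-transfer/seed storage family genes AT5G38160 and AT5G38170, with 19.2 to 89.2 and 17.5 to 66.5 TPM. AT2G38900, a potato inhibitor I-type protease inhibitor, had 14.4 to 33.2 TPM there, and AT1G56100, another invertase/pectin methylesterase inhibitor, 15.4 to 30.9 TPM. AT2G30810, of the gibberellin-regulated family, is also listed at 0 in pp7l 15D and had 15.2 to 28.9 TPM in Col0 12D. In pp7l 15D the 4 were AT5G35480 with 9.49 to 25.5 TPM, the DVL peptide gene DVL21 with 10.2 to 18.3 TPM, AT3G53400 with 9.89 to 12.0 TPM and AT1G14250 with 5.88 to 7.82 TPM. In DVL21 and AT3G53400 the spread over other groups was wide, with standard errors of 0.99 and 1.05.

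Clock genes leaned lower with the deposited total. Of 16 measured genes 7 were lower and 1 higher, where 17.1% and 17.6% of all loci were. The counts were again 7 and 1 without either library that stood apart. The median was -0.33, against -0.08 for all loci. With the total of nuclear loci 6 were lower and 2 higher, and the median was -0.075, against 0.22 for all loci. ELF4, of the evening complex, had 5.96, 3.14 and 2.88 TPM in pp7l 15D and 21.8, 30.1 and 97.6 TPM in Col0 12D, a difference of -3.10 ± 0.41 (SE; limma adjusted p = 9.98e-07). FKF1 and PRR5 were at most 21.4 and 21.3 TPM in pp7l 15D and 52.9 to 83.2 and 37.7 to 64.1 TPM in Col0 12D. The morning gene LHY was lower by the same test, at 1.07 to 1.75 TPM in pp7l 15D and 4.19 to 11.6 TPM in Col0 12D, and TOC1 was at 14.1 to 18.1 TPM in pp7l 15D and 28.0 to 34.3 TPM in Col0 12D. PRR3 was the higher one, at 6.63 to 8.58 TPM in pp7l 15D and 1.66 to 4.58 TPM in Col0 12D. GI did not pass, with 23.7 to 33.9 TPM in pp7l 15D and 23.59 to 29.5 TPM in Col0 12D. The hour of harvest is not given in the sources used here.

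Anthocyanin and flavonoid genes had risen from 0D in both groups, 14 of 15 in pp7l 15D and 14 of 15 in Col0 12D, where 52.3% and 65.5% of all loci had risen. Between the groups 2 were higher and 4 lower in pp7l 15D, where 17.6% and 17.1% of all loci were. Without Col0 12D replicate 3 the counts were 1 and 4. The interval of the difference lay within 2-fold for 4 of the 15 (26.7%), against 43.7% of all loci. The dioxygenase LDOX had 23.0, 27.6 and 18.8 TPM in pp7l 15D and 35.8, 27.1 and 23.6 TPM in Col0 12D, with an interval of -0.84 to 0.39 relative to the median locus. It had stood at 1.63 ± 0.182 TPM in pp7l and 2.89 ± 0.523 TPM in Col0 at 0D (SD, n = 3). DFR and TT4, both enzymes of the pathway, did not pass, with 58.8 to 81.0 and 160 to 217 TPM in pp7l 15D and 106 to 120 and 268 to 357 TPM in Col0 12D. The related regulators PAP1 and PAP2 (MYB90 in the reference) differed in opposite directions. PAP1 had 30.1, 32.3 and 24.6 TPM in pp7l 15D and 16.0, 12.9 and 7.42 TPM in Col0 12D, and PAP2 had 10.06, 11.2 and 10.3 TPM in pp7l 15D and 53.6, 62.5 and 40.8 TPM in Col0 12D. F3H was among the lower genes, at 13.8 to 16.3 TPM in pp7l 15D and 52.9 to 56.95 TPM in Col0 12D.

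Other genes reached like levels after a rise in both genotypes. A total of 901 loci had risen from 0D in both, averaged 10 TPM or more in at least 1 group and had an interval within 2-fold. By the smaller of their rises the first were BGLU11, BCAT-2, GolS4, GAMMA-VPE, LDOX, AT4G12290, AT1G12805 and ML3. BGLU11, a beta-glucosidase, had 16.8, 17.5 and 20.6 TPM in pp7l 15D and 17.44, 17.1 and 13.1 TPM in Col0 12D, from 0.668 ± 0.121 TPM in pp7l and 0.371 ± 0.0659 TPM in Col0 at 0D (SD, n = 3). BCAT-2, which degrades branched-chain amino acids, had 19.8 to 24.8 TPM in pp7l 15D and 18.1 to 30.6 TPM in Col0 12D. GAMMA-VPE, a vacuolar protease of vegetative tissue, had 405 to 646 TPM in pp7l 15D and 517 to 658 TPM in Col0 12D. GolS4 had 6.82 to 17.95 TPM in pp7l 15D and 11.8 to 15.9 TPM in Col0 12D. The copper amine oxidase AT4G12290 had 58.8 to 83.8 TPM in pp7l 15D and 64.7 to 92.5 TPM in Col0 12D.

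Likewise 35 loci had fallen in both and ended within 2-fold. The counts of 901 and 35 rest on the deposited total, with which the median locus had itself risen, by 0.67 in pp7l and 1.08 in Col0. After median-of-ratios scaling, and without the limits on level and interval, 3063 loci had risen in both and 3092 had fallen in both. AT1G49500, annotated as TFIID subunit 1b-like, had 2.97, 1.54 and 0.795 TPM in pp7l 15D and 2.72, 1.12 and 1.31 TPM in Col0 12D, from 27.7 ± 1.47 TPM in pp7l and 50.7 ± 7.60 TPM in Col0 at 0D (SD, n = 3). AT1G23390, an F-box protein with Kelch repeats, had 6.48 to 7.02 TPM in pp7l 15D and 6.85 to 7.76 TPM in Col0 12D. AT2G20670 was at 1.26 to 1.66 TPM in pp7l 15D and 0.985 to 2.60 TPM in Col0 12D. CHL-CPN10, a chloroplast chaperonin, had 10.8 to 16.8 TPM in pp7l 15D and 8.10 to 13.6 TPM in Col0 12D. The rule for named genes also gave AT5G19120, AT1G74730, AT5G17670 and AT2G36885.

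The changes from 0D show how far each group had moved. limma called 8942 loci higher (52.3%) and 841 lower (4.92%) in pp7l 15D than in pp7l 0D, 57.2% in all, and 11198 higher (65.5%) and 1864 lower (10.9%) in Col0 12D than in Col0 0D, 76.4% in all. The medians of all loci were 0.67 in pp7l and 1.08 in Col0, and TPM are shares of a total. Loci that had risen in both numbered 7745, which is 86.6% of the rises in pp7l and 69.2% of those in Col0. Loci that had fallen in both numbered 618, which is 73.5% of the falls in pp7l and 33.2% of those in Col0. Another 56 had risen in Col0 and fallen in pp7l, and 156 had risen in pp7l and fallen in Col0. After median-of-ratios scaling 3063 rose in both, which is 77.2% of 3966 rises in pp7l and 48% of 6382 in Col0, and 3092 fell in both, which is 80.4% of 3844 falls in pp7l and 53.6% of 5773 in Col0.

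The difference between the changes was tested itself. limma called 1419 loci (8.3%) whose change was higher in pp7l and 4269 (25%) whose change was lower, 33.3% in all, and 3562 (20.8%) and 3778 (22.1%), 42.9% in all, after median-of-ratios scaling. The median difference in change was -0.43 before scaling and -0.02 after it. These values share the 15D and 12D libraries with the direct comparison. All 9 PP2Cs measured and 18 of 30 dehydration genes had a lower change in pp7l, and 24 of 29 photosystem genes and 15 of 20 light-harvesting genes a higher one. Of the PP2Cs AHG1, and of the dehydration genes ABI5, reached 1 TPM in Col0 12D alone, so the filter bears on these members. The homeobox gene HB-2, which responds to shade light, had 60.6, 65.6 and 67.9 TPM in pp7l 15D and 2.44, 3.69 and 2.05 TPM in Col0 12D, after 18.3 ± 1.48 TPM in pp7l and 61.6 ± 4.19 TPM in Col0 at 0D (SD, n = 3). It had risen in pp7l and fallen in Col0, a difference in change of 5.86 ± 0.77 (SE; limma adjusted p = 2.71e-06). ESM1 averaged 272 ± 18.9 TPM in pp7l and 142 ± 60.2 TPM in Col0 at 0D (SD, n = 3); its change did not pass in pp7l, and it had fallen in Col0.

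Some loci also differed before water was withheld. At 0D 3332 loci were higher (19.5%) and 208 lower (1.22%) in pp7l than in Col0, 20.7% in all. The median difference of all loci at 0D was 0.31, and TPM are shares of a total. Of the 5941 loci called between pp7l 15D and Col0 12D, 1119 were also called at 0D, a share no larger than the 20.7% of all loci. Of these, 669 were higher both times, 75 were lower both times and 375 went in opposite directions. PR1 was among those higher at 0D, with 155 ± 7.56 TPM in pp7l and 10.8 ± 0.400 TPM in Col0, and so were MBP1, with 19.5 TPM in pp7l and 3.21 TPM in Col0, and LOX2, with 99.1 TPM in pp7l and 25.9 TPM in Col0 (means, n = 3). By list, 13 of 16 salicylic acid genes, 10 of 23 chlorophyll synthesis genes, 9 of 16 clock genes and 5 of 6 cell cycle genes were higher in pp7l at 0D, where 19.5% of all loci were. The cell cycle list includes CYC1BAT and CYCD3;1, which passed the filter through pp7l 15D alone, so its count leans on the filter. Relative to the median locus, the median differences of these lists at 0D were 0.95, 0.55, 0.67 and 0.52. None of the light-harvesting, photosystem, glucosinolate and anthocyanin genes was called at 0D, and 1 of the 9 PP2Cs was, as lower in pp7l.

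Set beside the other days, pp7l 15D was less like Col0 12D than like Col0 9D. Over the 17092 loci the rank correlation of pp7l 15D with Col0 was 0.777 (0D), 0.844 (6D), 0.879 (9D), 0.785 (12D) and 0.669 (15D), and the median absolute difference 0.55, 0.406, 0.296, 0.474 and 0.567. With its own genotype the correlation was 0.835 (0D), 0.922 (6D), 0.939 (9D) and 0.963 (12D). These values have no test, and Col0 6D rests on 2 libraries. RAB18 averaged 150 ± 85.3 TPM in pp7l 15D, and 37.9 ± 27.7 TPM at 9D, 2715 ± 646 TPM at 12D and 414 ± 189 TPM at 15D in Col0 (SD, n = 3). HAI1 averaged 16.2 ± 7.58 TPM in pp7l 15D and 11.1 ± 0.783 TPM at 9D, 238 ± 32.4 TPM at 12D and 126 ± 60.3 TPM at 15D in Col0 (SD, n = 3). CAB1 averaged 2641 ± 168 TPM in pp7l 15D and 2324 ± 362 TPM at 9D, 425 ± 101 TPM at 12D and 43.9 ± 24.0 TPM at 15D in Col0 (SD, n = 3). Some genes did not follow that order. LTP4 averaged 61.5 ± 22.3 TPM in pp7l 15D and 771 ± 19.4 TPM at 9D in Col0 (SD, n = 3). FT, at 0 in pp7l 15D, averaged 2.51 ± 0.294 TPM at 9D in Col0. ESM1 averaged 419 ± 55.9 TPM in pp7l 15D and 137 ± 43.4 TPM at 9D in Col0 (SD, n = 3).

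**Figure D5:**
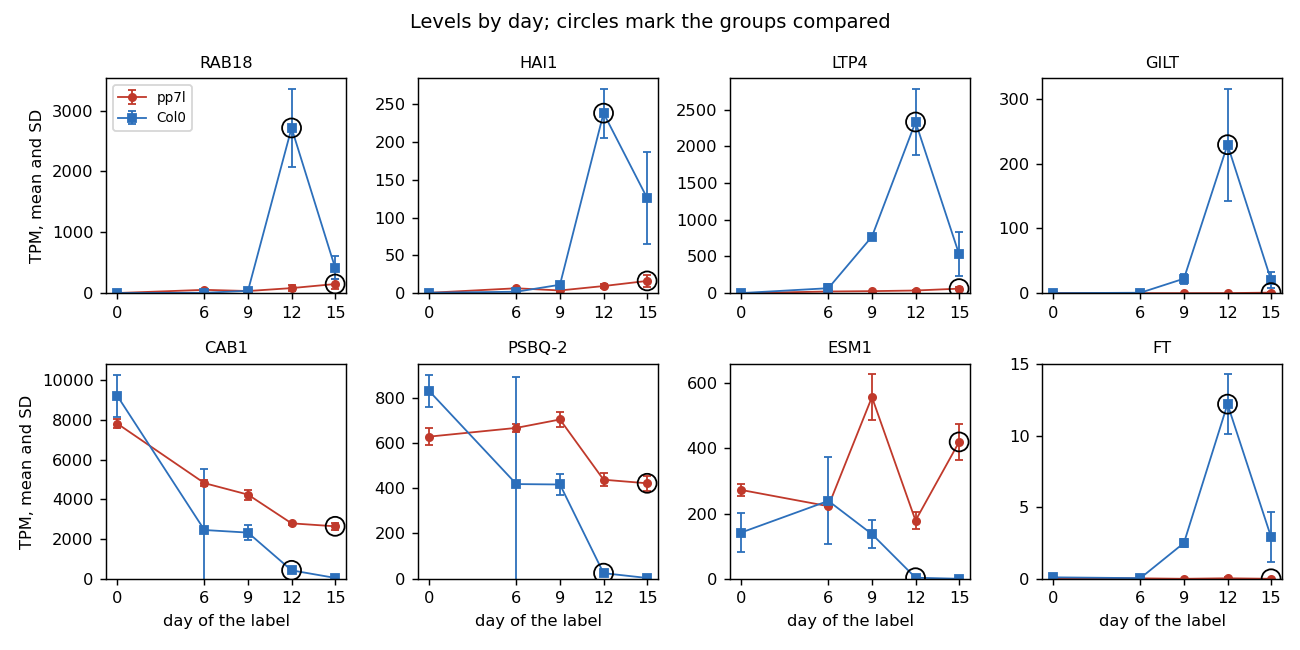
Mean TPM and SD by day without water for 8 genes in pp7l (red circles) and Col0 (blue squares), n = 3 except Col0 6D with n = 2; bars are clipped at 0. Black rings mark pp7l 15D and Col0 12D: RAB18, HAI1, LTP4, GILT and FT peak in Col0 12D, and CAB1, PSBQ-2 and ESM1 are lower in Col0 12D than in pp7l 15D and Col0 9D.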

How the data were processed

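The submitters' processing notes name Trimmomatic, FastQC and Salmon, with TAIR10 as the build; versions are not given in the sources used here. The values the authors deposited are TPM per locus, rRNA and organellar loci included, so they are shares of a total, and depth and counting error are unknown. Differences were tested on log2(TPM + 1) with limma 3.58.1 in R 4.3.3, which understates the fold of low genes. The fit gave each of 10 groups its own mean over the 29 libraries (19 residual df, variances moderated along an intensity trend) for 18757 loci with at least 1 TPM in at least 3 of the 29 libraries. P-values were adjusted by Benjamini-Hochberg over these loci. Shares were compared by exact permutation tests. Names and upstream sequences came from RefSeq TAIR10.1, in which 32954 of 33681 loci were found; organellar loci were not named there and keep their identifiers. Locus types were taken from the same annotation. The fit was tested on simulated data.

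The loci and gene lists were chosen with earlier results of these data known, and list members were named after their values were seen. Of 428 listed loci 372 passed the minimum of 1 TPM in 3 of the 6 libraries; the filter passes a locus that is high in 1 group alone. Other genes were named by rule: the 12 largest differences in each direction among called nuclear protein-coding genes that average 10 TPM or more in a group, without overlap and called alike after median-of-ratios scaling; 8 per direction that had changed alike from 0D; 5 per group among loci at 0 in the other; 5 per direction by difference in change; and the most abundant plastid, mitochondrial and rRNA loci, of which those that bear on a result are given. The alternatives changed the pseudocount (0.1), filter, scaling, total, weights, trend and libraries, and added the replicate number as a block.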

Additional observations from a re-analysis of the deposited data

Results flagged for a closer look

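The changes from 0D differed between the genotypes, by a test of the difference itself. The change was higher at 1419 loci (8.3%) and lower at 4269 (25%) in pp7l (15D minus 0D) than in Col0 (12D minus 0D). This balance depended on the scaling. After median-of-ratios scaling the counts were 3562 (20.8%) and 3778 (22.1%), and the median difference in change moved from -0.43 to -0.02. The days differ between the genotypes, so genotype and time without water cannot be told apart in any of these values. The genes with the widest gaps on the higher side were HB-2 (5.86), ESM1 (5.65), AT2G45180 (5.65), AT3G55240 (5.54) and the lipid transfer protein gene LTP (5.28), as differences in log2 change. On the lower side they were GILT (-7.15), DELTA-VPE (-6.04), AT4G15750 (-5.70), AT4G12870 (-5.66) and SAG29 (-5.35). Groups of 3 libraries were too small for a test of single outlying libraries.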

How the results depend on the processing

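Counts of calls held within 1.5 times under most alternatives. The exceptions were these. With at least 5 TPM in 3 of the 6 libraries, fewer loci were tested: 1342 were called higher and 1844 lower, 3710 had an interval within 2-fold, and 743 had a higher change. With the total of nuclear loci the values were 4546 higher and 1899 lower, with 2441 higher in change. Array weights gave 5854 lower, 2493 higher in change and 7385 lower in change, and median-of-ratios scaling gave 3562 higher in change. The number of loci within 2-fold was 2692 with a pseudocount of 0.1 and 16745 without a filter, which adds loci near 0. The causes of the other moves were not tested.

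Leaving out 1 library at a time gave 2256 to 2878 higher calls, 2156 to 2797 lower calls, 5900 to 6647 loci within 2-fold, 1122 to 1419 higher and 3200 to 4156 lower differences in change, and put the plastid share 12.1 to 23.5 points higher and moved the mitochondrial share by -0.411 to -0.0576 points in pp7l 15D. Of 118 named genes that were called, 12 lost the call in at least 1 alternative, AOX1A, GOLS1 and PBS3 most often, and none changed direction. The 16 genes named for like levels were less stable. Over the alternatives their intervals stayed within 2-fold in 191 results and did not in 60. Same-numbered libraries of the groups correlated by -0.191, -0.0397 and -0.183 after removal of group means. With 3 libraries per group these values have no test, and cannot tell whether the numbers pair the libraries. With the replicate number as a block 2919 loci were higher and 2788 lower, and in the 6 libraries alone 3108 and 3443. The difference in change could not be fitted in the 6 libraries alone. TPM hold no depth, so a locus at 0 may be undetected.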

Other observations

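Genes of reactive oxygen metabolism, not described above, were called in both directions in pp7l 15D. Of 14 genes 3 were higher and 4 lower, where 17.6% and 17.1% of all loci were, and without either library that stood apart 2 were higher and 2 lower. The iron superoxide dismutase FSD1, a chloroplast enzyme, had 115, 102 and 101 TPM in pp7l 15D and 40.2, 21.8 and 20.2 TPM in Col0 12D. The 3 catalase genes went different ways. CAT3 had 2187, 2132 and 2656 TPM in pp7l 15D and 1099, 831 and 486 TPM in Col0 12D, and did not pass the test without Col0 12D replicate 3 or without pp7l 15D replicate 3. CAT1 had 15.6, 13.5 and 12.1 TPM in pp7l 15D and 35.4, 61.4 and 58.6 TPM in Col0 12D, and CAT2 was lower as well. AOX1A, the main alternative oxidase of mitochondria, had 59.2, 62.4 and 20.9 TPM in pp7l 15D and 60.6, 100.2 and 101 TPM in Col0 12D, and did not pass without either of those libraries.

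The noncoding locus AT1G15405 held 10.5%, 9.32% and 7.48% of TPM in pp7l 15D and 11.5%, 16.1% and 10.9% in Col0 12D (exact two-sided permutation p = 0.1, the smallest that 3 against 3 allows). The rRNA locus AT2G01020 had 232, 64.2 and 73.6 TPM in pp7l 15D and 255, 312 and 208200 TPM in Col0 12D, and was not called.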
